A study of Mus musculus with 67 samples.

Results

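The genes described here are the mouse genes of the ubiquitin and proteasome system whose symbols start with Psm, Uba, Ube2, Ube3, Usp, Uchl, Fbxo, Fbxw, Fbxl, Cops, or Cul followed by a digit. They were found by symbol among the features that the probe table pairs with exactly 1 gene, and features of a gene were averaged. The rule found 107 features for 89 of the 4209 genes with 1 symbol. Expression was measured in the striatum of 67 male and female C57BL/6 mice, 1 nylon cDNA filter per mouse, to examine effects of age, diet and gender. The titles name this filter mouse17K-B, and its 8448 features are fewer than the genes that the paper counts. A gene not matched here can still have been measured in the study. Adult mice ate ad libitum (AL) or were under caloric restriction (CR), in which a fortified feed was cut in steps from young adulthood until death, and all were housed singly in the same facility. They were young (169 to 194 days), middle-aged (472 to 499 days) or old (673 to 743 days). There were 10, 10 and 10 AL mice and 9, 10 and 8 CR mice at these ages, with 5 of each sex except for 4 young CR males and 3 old CR males. A further 10 AL juveniles were 17 to 44 days old. All expression values below are Z scores, scaled by the authors so that the 8448 features of a filter average 0 with an SD of 1, and differences between groups are in the same Z units.

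Ubiquitin is a small protein that is activated by an E1 enzyme, passed to an E2 conjugating enzyme and attached to a substrate with the help of an E3 ligase. In the largest family of ligases a cullin scaffold holds an F-box protein or another adaptor that picks the substrate, the cullin is switched on by the ubiquitin-like protein NEDD8, and the COP9 signalosome removes NEDD8 again. Chains of ubiquitin are read by the 19S regulatory particle of the proteasome and the tagged protein is cut inside the 20S core, while deubiquitinases take ubiquitin off. Neurons depend on this system to clear damaged proteins and to remodel synapses, and aggregates rich in ubiquitin mark several diseases of the striatum and its inputs.

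The arrays were not all alike. In 8 arrays (7 adult, 1 juvenile, from 8 different groups of age, diet and sex) the median score lay between -0.07 and -0.05, against -0.02 to 0.06 in the other 59, and the profile correlated at 0.925 to 0.946 with the median profile, against 0.976 to 0.995. The arrays titled 66 and 67, both of old AL mice, correlated at 0.132 to 0.135 as listed and at 0.992 once their values were turned end to end, and they are used turned. Of 20 striatal neuron markers 5 were on the filter, among them Ppp1r1b (DARPP-32, the phosphatase inhibitor of medium spiny neurons) with a mean score of 0.509 in adults. Foxp1 was at -0.136 and the dopamine receptors were not among the genes matched, so the tissue could be checked on few markers only. In bulk tissue, fewer cells of a type and less RNA per cell cannot be told apart.

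The filter was a partial inventory of the system. Of the 89 genes, 45 had a mean score above 0 in adults and were tested (50.6%, against 50.2% of all 7782 rows), and 44 lay below. Nearest to this limit were Usp35 at 0.0542 inside and Fbxo3 at -0.00588 outside, the latter the mean of 2 features at 0.452 and -0.464. A score also depends on the clone that was spotted, so scores describe a feature and do not rank transcripts. The score of a gene with several features is their mean and can hide unlike ones. Examples are Psmd10 (1.37 and -0.706) and Psmc3ip (0.188 and 2.23).

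Of the 20S core, 4 subunits were measured. Psma3, a subunit of the outer alpha ring, scored 0.800 ± 0.0793 (SD, n = 57 adults) and Psmb5, the subunit with chymotrypsin-like activity, 0.764 ± 0.217. The alpha subunits Psma2 and Psma5 lay below the limit, at -0.451 and -0.558. Of 8 genes with names of the 19S particle, 6 were tested. They were Psmc1, an ATPase of the base (0.477), Psmd2, a scaffold of the base (0.986), the ubiquitin receptor Psmd4 (0.151), the lid subunits Psmd7 (0.421) and Psmd11 (0.464), and Psmd10 (0.333), better known as gankyrin, a chaperone of assembly. Psmd5, another assembly chaperone, was lowest at -1.05, and the lid subunit Psmd12 was at -0.774. Among genes that regulate or assemble the particle, the chaperone Psmg4 scored 1.11 and the PA28 activator subunit Psme1 0.194, and the inhibitor Psmf1 was lowest at -1.64.

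Upstream of the proteasome, Uba3, the catalytic subunit of the NEDD8-activating enzyme, scored 1.52 ± 0.0743 and was the only E1 gene measured. Of 17 conjugating enzymes 9 were tested, with Ube2q1 (0.875) and Ube2k (0.809), an enzyme that builds chains for degradation, at the top and Ube2b, which works in DNA repair, lowest at -1.11. The ligase side held the HECT ligase Ube3b (0.462), the cullin Cul7 (1.17) with Cul1 (-0.107) and Cul3 (-0.410) below the limit, and 14 F-box genes of which 5 were tested. Fbxw7, the adaptor for cyclin E, Myc and Notch, was at 1.62, Fbxo21 at 1.08 and Fbxw22 lowest at -1.18. Fbxw15, Fbxw19 and Fbxw22 are near copies of each other and Ube2d2a and Ube2d3 nearly share their sequence, so cDNA features may not tell these apart. Cops5, the subunit that cleaves NEDD8 off cullins, scored 2.05 ± 0.104 and was tested with Cops4 (0.274), Cops6 (0.953) and Cops7a (0.741), and Cops9 lay below at -0.243. Of 24 ubiquitin-specific proteases only 8 were tested, led by Usp25 (1.97) and Usp34 (0.822). Usp7, which acts on p53 and Mdm2, had the lowest score of all the genes described here, -2.88. Uchl1, an abundant neuronal hydrolase, was at 0.139 ± 0.167 and its relative Uchl3 at -0.535. Finally, 6 genes carry names of this kind without being classical members, and of these Psmc3ip, a recombination factor, was highest at 1.21, the PSME3-binding Psme3ip1 next at 0.955 and Ubap2l lowest at -0.659. Psmb4 and Usp46, which the study names, were not among the genes matched here and are not analysed.

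Averaged over their tested genes, the groups of the system stayed within narrow ranges of score at every age and on both diets. The mean of the 6 tested 19S genes was 0.473 ± 0.0512 (SD, n = 10) in young, 0.445 ± 0.0398 (n = 10) in middle-aged and 0.473 ± 0.0362 (n = 10) in old AL mice. In CR mice it was 0.470 ± 0.0645 (n = 9), 0.485 ± 0.0732 (n = 10) and 0.488 ± 0.0641 (n = 8). The 20S mean ran from 0.764 ± 0.1001 in old CR mice to 0.814 ± 0.123 in young AL mice. For the 9 conjugating enzymes the means of the 6 adult groups lay between 0.441 and 0.468, for the 5 F-box genes between 1.01 and 1.04, for the 4 COP9 genes between 0.993 and 1.02, and for the 8 ubiquitin-specific proteases between 0.628 and 0.661. In each of these groups of genes the mice of all adult ages and diets overlapped.

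**Figure D1:**
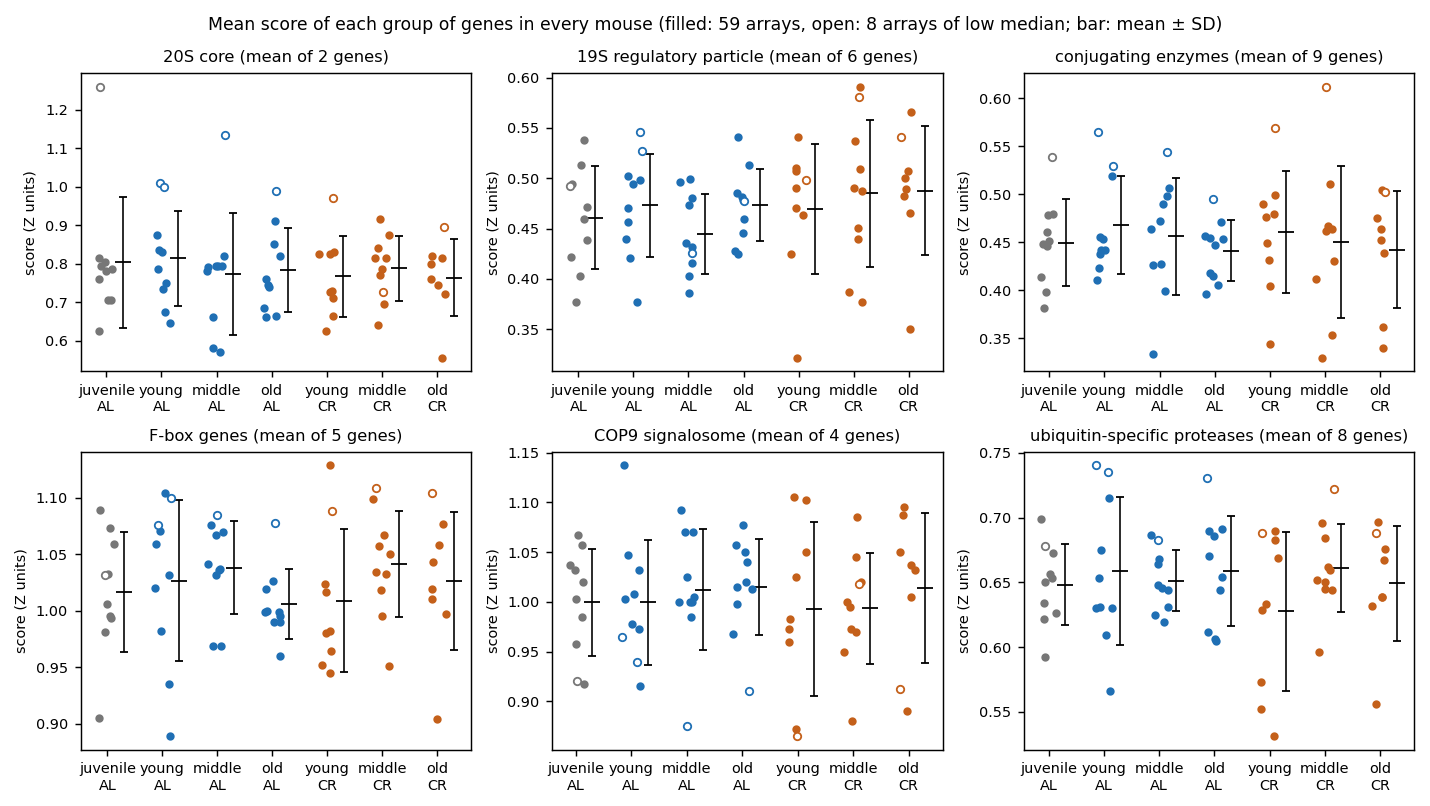
Mean score (Z units) of the tested genes of 6 groups in every mouse, by age and diet, with 1 point per mouse, open points for the 8 arrays of low median score, and bars for the mean ± SD. The clouds overlap at all ages and on both diets, and the 20S mean of 1.26 in 1 juvenile belongs to an array of low median.

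No gene of the system passed an adjusted p of 0.05 (limma, adjusted over all rows tested) in any of the 14 comparisons, and neither did any other row on the filter, so the background was 0% throughout. The median half-width of the 95% interval of a gene's difference was 0.131 for ages in AL mice and 0.0785 for CR against AL over all ages. These intervals are for 1 gene without adjustment, and a call over 3904 rows asks for a larger shift. The arrays of low median widened the spread of some genes. The SD within groups of Ube2q1 was 0.239 with all adult arrays and 0.137 without them, and that of Psma3 0.0846 and 0.0901. At most 2.18% of all rows in a comparison had an unadjusted p under 0.05, below the 1 in 20 that chance alone gives. What follows gives the direction, the size and the error of the differences. Since no gene passed, counts at an unadjusted p under 0.05, and by the rule of the study's methods (the same p with a difference over 1.5 SD of all differences), are set beside the share of all rows that met the same rule.

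With age in AL mice, no gene of the system passed and differences lay on both sides of 0. From young to middle age 14 of the 45 genes were higher, 30 lower and 1 (Uchl1) equal, with a median difference of -0.012 (0.001 over all rows). That balance turned without the arrays of low median (25 of 46 higher, median 0.00319) and with weights for array quality (27 of 45 higher, median 0.0151). From middle to old age 20 were higher and 25 lower, with a median of -0.007 (0.001 over all rows), and between young and old 17 were higher and 28 lower, with a median of -0.022 (-0.001 over all rows). No gene reached an unadjusted p of 0.05 in these 3 comparisons, where 0.845%, 0.333% and 0.307% of all rows did (0.64%, 0.333% and 0.307% by the methods' rule). The 2 smallest p downward from young to middle age belonged to Cul7, a cullin, with a difference of -0.076 ± 0.0451 (SE, unadjusted p = 0.0985 in limma, adjusted p = 1), and to the lid subunit Psmd7 (-0.082 ± 0.0627). The 2 upward were gankyrin, Psmd10 (0.046 ± 0.0376), and the protease Usp32 (0.089 ± 0.0903).

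From middle to old age Psmd4, the ubiquitin receptor of the proteasome, was at -0.07, 0.095 and 0.29 (lowest, median, highest of 10 mice) and then at -0.03, 0.195 and 0.32. The ranges overlapped almost fully, and the difference was 0.084 ± 0.058 (95% interval -0.0326 to 0.201, adjusted p = 1 in limma). Ube2n, which builds chains used in signaling, differed by 0.059 ± 0.0498, the ER enzyme Ube2j1 by -0.054 ± 0.0595 and Cops5 by -0.04 ± 0.0487. All 5 F-box genes tested were lower in old than in middle-aged AL mice, with differences from -0.058 for Fbxw7 to -0.009 for Fbxo42, each smaller than its SE (smallest unadjusted p = 0.443 in limma). Between young and old AL mice the 2 genes with the smallest p in each direction were Usp32 (0.0795), Cops7a (0.089), the conjugating enzyme Ube2e2 (-0.071) and Ubac2, a ubiquitin-binding protein of the ER (-0.063), with unadjusted p from 0.277 to 0.401. Uchl1 stood at -0.05, 0.1 and 0.48 in young, at -0.18, 0.18 and 0.3 in middle-aged and at -0.12, 0.105 and 0.34 in old AL mice. Its 3 ages could not be told apart, and for old against middle age the interval ran from -0.156 to 0.164.

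**Figure D2:**
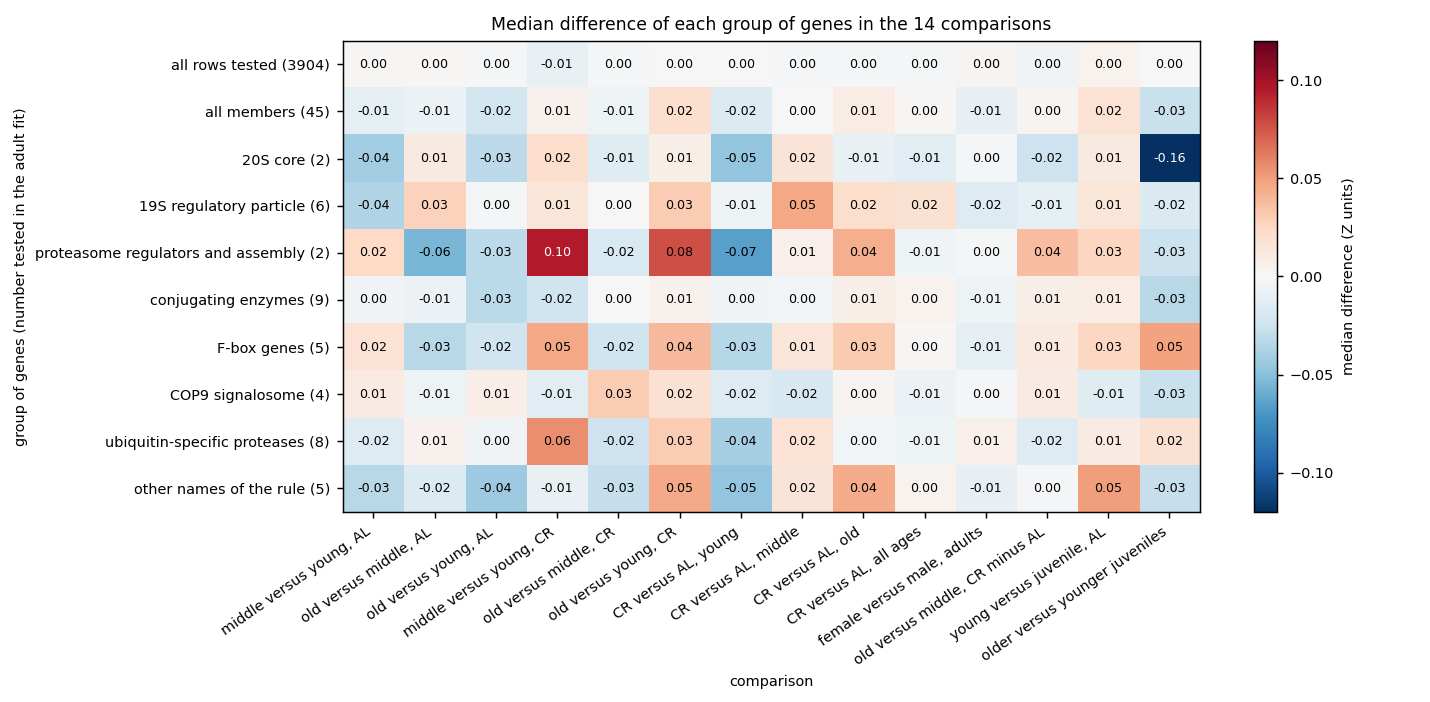
Median difference (Z units) of each group of genes, rows, in the 14 comparisons, columns, with the number of genes tested in the adult fit in brackets and the median over all rows tested on top. Medians lie near 0, and the largest, -0.16 for the 20S core in older against younger juveniles, rests on 2 genes. The younger group includes an array of low median, juvenile AL male replicate 3, with a 20S mean of 1.26 (nearest juvenile 0.815).

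In CR mice the step from young to middle age held the smallest p of any adult comparison for these genes. Of the 45 genes 23 were higher and 22 lower, with a median of 0.0055 (-0.00875 over all rows). Cops5, the catalytic subunit of the COP9 signalosome, was at 1.74, 2.02 and 2.16 (lowest, median, highest of 9) in young and at 1.95, 2.09 and 2.19 (of 10) in middle-aged CR mice. The 2 groups overlapped between 1.95 and 2.16, and 4 young CR mice lay below every middle-aged one. The difference was 0.113 ± 0.0502 (95% interval 0.0121 to 0.214, unadjusted p = 0.0289, adjusted p = 0.893 in limma), and with single arrays left out it ran from 0.0763 (without young CR male replicate 1, unadjusted p = 0.134) to 0.146 (without young CR male replicate 4, unadjusted p = 0.00573). Cops5 was the 1 gene of the system with an unadjusted p under 0.05 here, where 2.18% of all rows were, and by the methods' rule, met by 1.49% of all rows, there was none. Next in each direction came Ubac2 (0.116 ± 0.0684), Ube2n (-0.102 ± 0.0513) and Ube2q1 (-0.155 ± 0.107). Without young CR female replicate 4 the count of 1 rose to 5 genes. The count over all rows rose as well, to 451, against 85 of 3904 with all adult arrays.

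From middle to old age 19 genes were higher and 26 lower in CR mice (median -0.00633, against -0.002 over all rows), and from young to old 28 were higher and 17 lower (median 0.0203, against -0.000583). None had an unadjusted p under 0.05, with 0.999% and 0.154% of all rows passing (0.973% and 0.102% by the methods' rule). Uspl1, a protease for the related modifier SUMO, was 0.102 ± 0.0513 higher in old than in middle-aged CR mice (unadjusted p = 0.0529 in limma), and Cul7 differed by 0.0547, Ube2j1 by -0.0468 and Usp10 by -0.0313. Uchl1 differed by 0.0753 ± 0.0858 between these ages. Between young and old CR mice Cops5 (0.0883), the protease Usp25 (0.125), Psme3ip1 (-0.0818) and Ube2q1 (-0.116) had the smallest p in their direction, from 0.108 to 0.319. Without old CR male replicate 3 (an array of low median) the difference of Ube2q1 was -0.0015 and that of Usp25 0.0413, and without old CR male replicate 1 they were -0.204 and 0.219. Old CR males were 673 days old and old CR females 703 to 743 days, so age and sex are not balanced in that group.

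**Figure D3:**
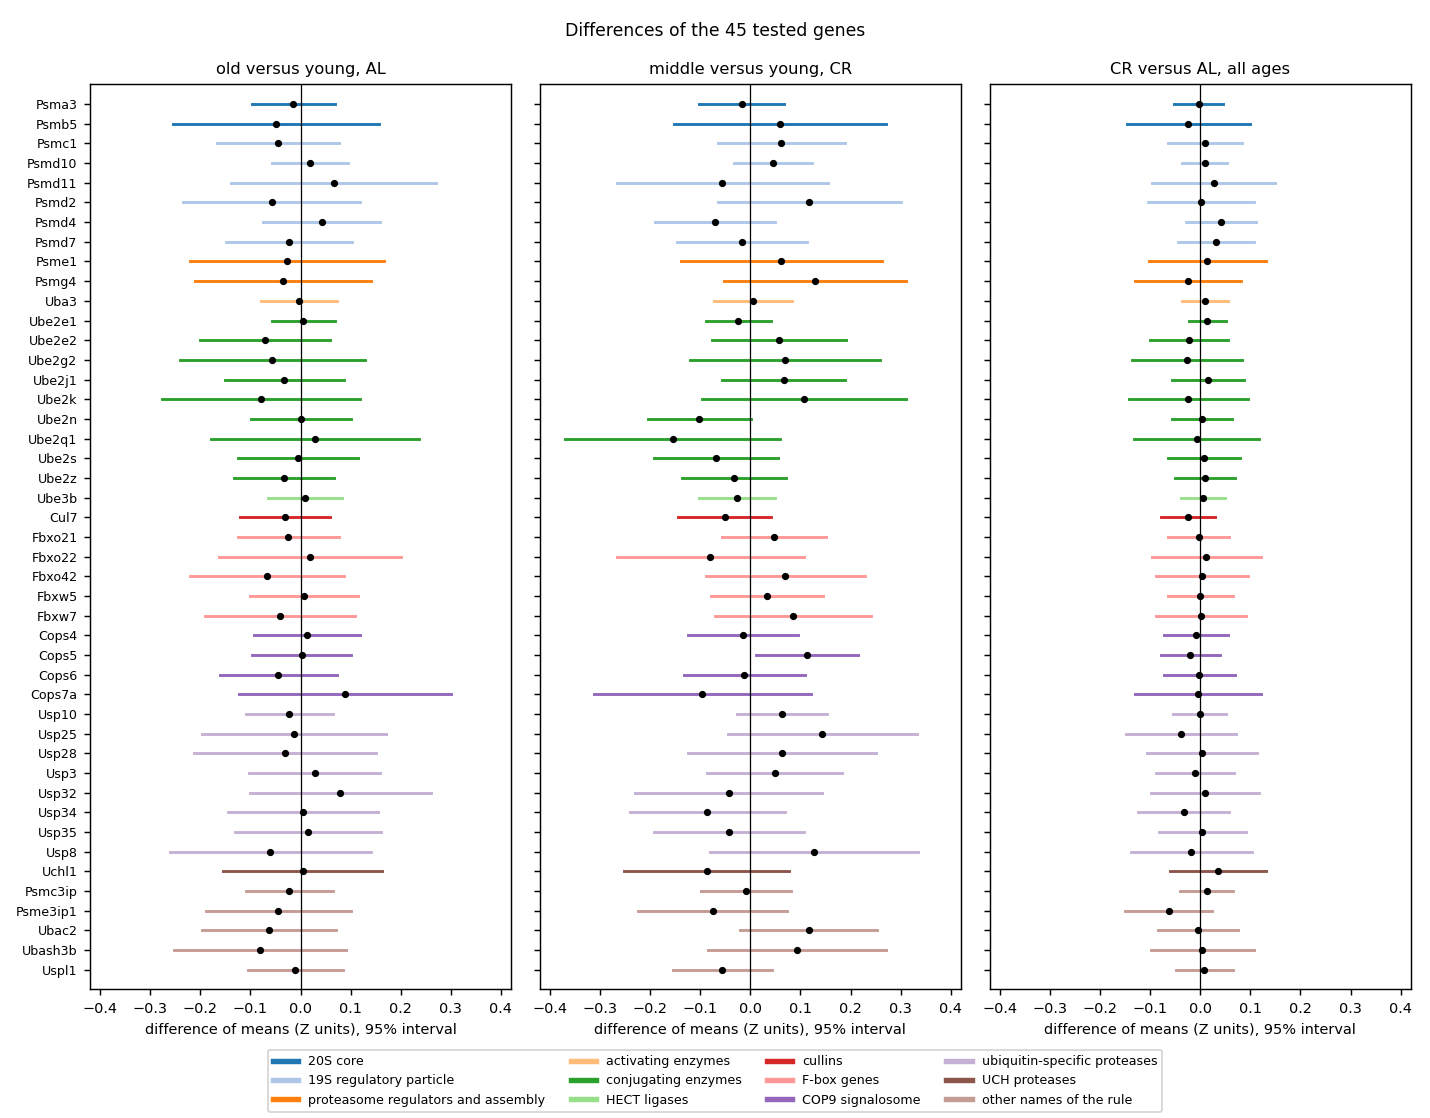
Difference of each of the 45 tested genes (points, Z units) with its 95% interval (lines, coloured by group of genes) for old against young AL mice, middle-aged against young CR mice, and CR against AL mice over all ages. Only the interval of Cops5 in the middle panel leaves out 0, and the intervals of the diet comparison are the narrowest.

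Weights for array quality changed the outcome in CR mice. With weights estimated from the data, 5 of the 45 genes passed an adjusted p of 0.05 in limma between young and middle-aged CR mice (11.1%), where 16% of all rows did. These were Ube2q1 (-0.219 ± 0.0484), Cops7a (-0.196 ± 0.0504), Uchl1 (-0.165 ± 0.0512), Psmd4 (-0.126 ± 0.0379) and Cops5 (0.101 ± 0.0362). For old against middle-aged CR mice only Uspl1 passed (0.0979 ± 0.0286, background 4.43%), and for old against young CR mice 12 genes did (26.7%, background 24.8%), among them Ube2k (0.181), Fbxw7 (0.167), Psmd11 (-0.182) and Psme3ip1 (-0.164). One array, old CR male replicate 2, had received a weight of 135 when the next was 3.92 and the median 1.26, and the estimation of the weights stopped before it had converged. Without that array the counts in both comparisons of old CR mice were 0, and the first was 4 (background 18.4%). Without the 8 arrays of low median the weighted counts were 5 of 46 (background 21.3%), 0 and 0. Cops7a, Psmd4, Ube2q1 and Uchl1 were called between young and middle-aged CR mice in all 3 forms of the weights, each lower in middle age. The share of all rows called in all 3 forms was not counted. The 3 forms reuse most of the same mice, and the 7 adult arrays of low median already had weights of 0.0801 to 0.132. Between young and middle-aged CR mice the share of the system called was below that of the filter in all 3 forms. These shares rest on 4 or 5 genes, and their difference from the filter was not tested. For old against young CR mice the weighted share lay above that of the filter (26.7% against 24.8%).

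In the plain scores these 4 genes looked as follows. Ube2q1 was at 0.26, 1.06 and 1.35 in young and at 0.55, 0.845 and 0.92 in middle-aged CR mice. Cops7a, a COP9 subunit, was at 0.18, 0.86 and 1.01 in the young and at 0.39, 0.705 and 0.89 in the middle-aged. Psmd4 went from -0.12, 0.24 and 0.42 to 0.06, 0.125 and 0.24, and Uchl1 from -0.11, 0.31 and 0.42 to -0.14, 0.12 and 0.33. In each the middle-aged mice fell within the range of the young, apart from the lowest value of Uchl1. The lowest young mouse was the array of low median for Ube2q1, Cops7a, Psmd4 and Uchl1 alike. Uchl1 also split the young CR mice by title order: 6 mice with lower title numbers scored 0.27 to 0.42, and the 3 with higher ones -0.11, -0.09 and -0.07. With runs of title numbers as a block, Ube2q1 differed by -0.158 (unadjusted p = 0.109 in limma), Cops7a by -0.102 (0.323) and Psmd4 by -0.0693 (0.182). Only 2 of the 45 genes had an unadjusted p under 0.05 in that fit, where 4.23% of all rows did. These were Cops5 (0.113, unadjusted p = 0.0255 in limma) and Ube2n (-0.096, 0.0486), so none of the 4 genes, Uchl1 included, was among them.

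**Figure D4:**
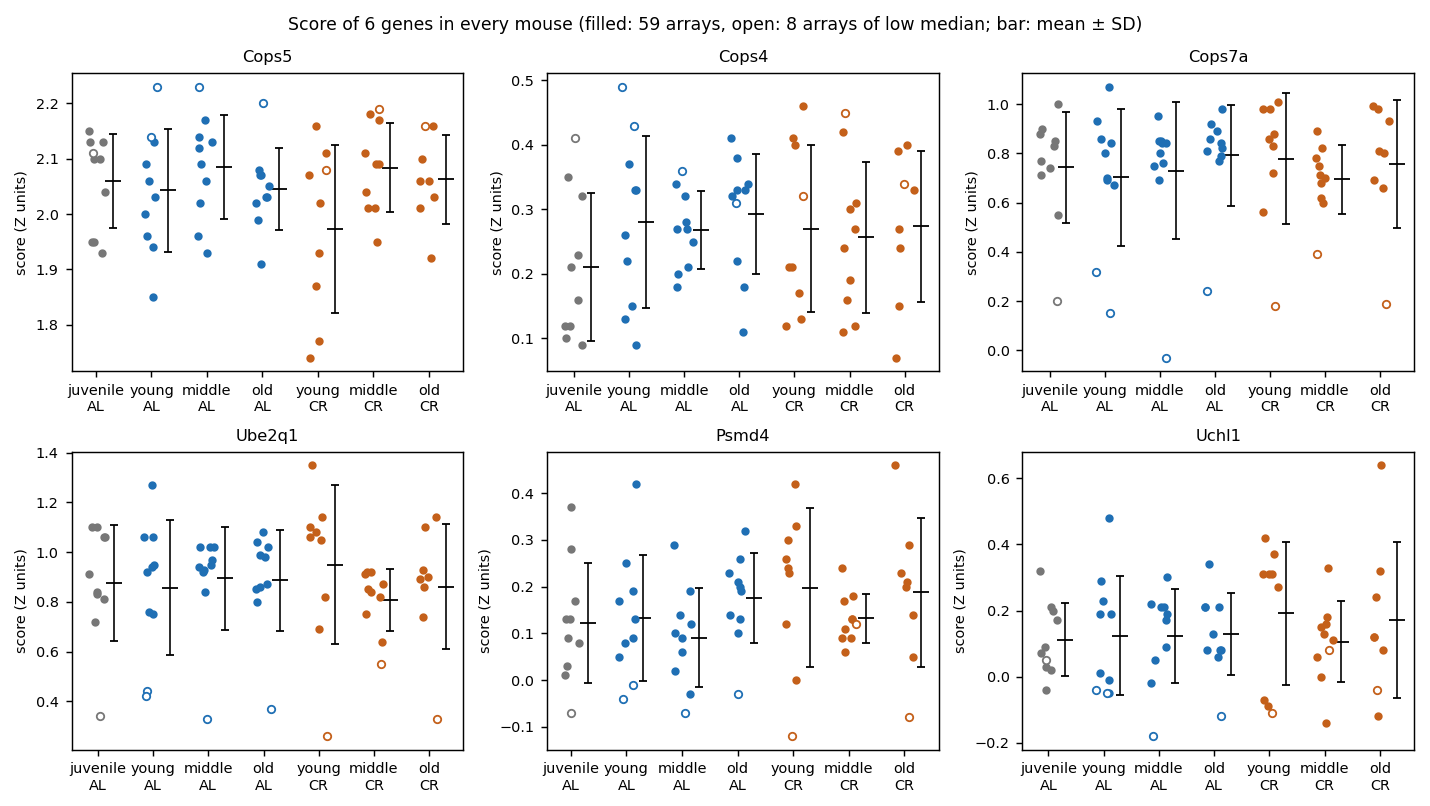
Score (Z units) of 3 COP9 subunits, Ube2q1, Psmd4 and Uchl1 in every mouse by age and diet, with open points for the 8 arrays of low median score and bars for the mean ± SD. Open points are the lowest of their group for Cops7a and Ube2q1 wherever they occur, while young CR mice reach down to 1.74 for Cops5 with filled points.

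The 8 arrays of low median shifted many of these genes. With group means held fixed, 47 of the 89 genes (52.8%) differed by over 0.2 between the 7 adult arrays of low median and the others, as did 58.8% of all rows. Cops7a was lower by -0.604 in them, Ube2q1 by -0.568, Psmd11 by -0.534 and the F-box gene Fbxo22 by -0.522, while Ubash3b, a phosphatase that binds ubiquitin, was higher by 0.503, Psmd2 by 0.501 and the protease Usp28 by 0.496. Without the 8 arrays the adjusted p again called no gene in any comparison. For young against middle-aged CR mice 9 of 46 genes then had an unadjusted p under 0.05, with 18.4% of all rows, and 8 of 45 did with a term for these arrays, with 15.3% of all rows. Without them Ube2q1 differed by -0.195 ± 0.0649 (adjusted p = 0.211 in limma), Cops7a by -0.124 ± 0.0566, Psmd4 by -0.105 ± 0.0506 and Cops5 by 0.116 ± 0.0484.

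The diets were compared at each age and over all ages. In young mice 17 of 45 genes were higher and 28 lower in CR than in AL mice (median -0.0161, against 0 over all rows), in middle-aged mice 22 were higher, 22 lower and 1 equal (median 0, against -0.001), and in old mice 29 were higher and 16 lower (median 0.009, against -0.00267). Over all ages 24 were higher and 21 lower, with a median of 0.00131 (-0.00269 over all rows). No gene had an unadjusted p under 0.05 in these 4 comparisons, where 0.487%, 0.0768%, 0.102% and 0.256% of all rows did (0.205%, 0.0768%, 0.102% and 0.256% by the methods' rule).

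All 6 tested 19S genes were higher in CR mice over all ages, by 0.00131 to 0.0423 with a median of 0.0181, and all 6 were higher at middle age, with a median of 0.0465. Among the 6 is Psmd10, a chaperone of assembly whose features ran against each other (r = -0.416). In young mice 3 of 6 and in old mice 5 of 6 were higher. The 95% interval of each of these differences covered 0, and the smallest unadjusted p among them was 0.229 (limma), for Psmd4 over all ages (0.0423 ± 0.0348, 95% interval -0.0275 to 0.112). Psmd7 differed by 0.0314 ± 0.0376 over all ages. At middle age, where Psmc1 had the smallest p of the 6 at 0.377, it differed by 0.0545 ± 0.0611. The 4 COP9 genes were all lower in CR mice over all ages, with differences from -0.0196 for Cops5 to -0.00156 for Cops6, each smaller than its SE. No striatal neuron marker passed an adjusted p between the diets either. Over all ages 3 of the 4 tested were higher in CR mice, with a median of 0.051, 1 of them at an unadjusted p under 0.05 (0.0451 in limma). In old mice 4 of 4 were higher (median 0.0415). In young mice 2 of 4 were higher, 1 of them at an unadjusted p under 0.05 (0.019 in limma). There Ppp1r1b had a mean of 0.438 in AL and 0.639 in CR mice, and Rasd2 0.099 and 0.231. The other 2 were lower in young CR mice, Arpp19 with 0.0575 in AL and 0.0306 in CR mice and Meis2 with 0.16 and 0.133. The mean of the 5 measured markers ran from 0.087 to 0.166 in young AL and from 0.088 to 0.29 in young CR mice, from -0.004 to 0.199 and from 0.038 to 0.24 at middle age, and from -0.025 to 0.157 and from -0.017 to 0.295 in old mice. Their part in the diet differences was not tested. Old CR males were 673 days old and old AL males 714 to 743 days, so the diets at old age also differ in age.

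The genes with the smallest p in each direction of the diet comparisons came from several groups. In young mice they were Usp25 (-0.156 ± 0.0939), Ubac2 (-0.103), Usp32 (0.108) and Psmd4 (0.0703), and in middle-aged mice Usp10 (0.0385), Ube2q1 (-0.087) and Psme3ip1 (-0.056) beside Psmc1. In old mice they were Psme3ip1 (-0.0853), the large protease Usp34 (-0.0617), Uspl1 (0.0557) and Psmd7 (0.06). Over all ages Psme3ip1 (-0.0629 ± 0.0431) and Cul7 (-0.0239 ± 0.027) had the smallest p downward. Uchl1 was at -0.12, 0.105 and 0.34 in old AL mice and at -0.12, 0.12 and 0.64 in old CR mice, a difference of 0.0533 ± 0.0858 whose interval, -0.119 to 0.226, covers shifts either way.

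The change from middle to old age was not shown to differ between the diets by the test of that difference. With the AL change taken from the CR change, 23 of 45 genes were above 0 and 22 below (median 0.00283, against -0.00433 over all rows), and none had an unadjusted p under 0.05, with 0.0512% of all rows (0.0512% by the methods' rule). Uspl1 (0.0877 ± 0.0699) and the F-box gene Fbxw5 (0.0693) lay highest by p and Psmd11 (-0.086 ± 0.150) and Usp25 (-0.0733) lowest. Between the sexes, 17 genes were higher and 28 lower in females (median -0.00981, against 0.00288), and none passed the unadjusted p, with 0.179% of all rows (0.179% by the methods' rule). Psma3 differed by -0.0337 ± 0.0245, Ube2e1 by -0.0221, Psmc3ip by 0.0262 and Usp25 by 0.027 between the sexes.

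From weaning age to young adulthood, 29 genes were higher and 15 lower in young than in juvenile AL mice and 1 was equal (median 0.017, against 0.004). None had an unadjusted p under 0.05, with 0.437% of all rows (0.437% by the methods' rule). Usp10 (0.061 ± 0.0411) and Ube2z (0.061 ± 0.0497), a conjugating enzyme with an E1 of its own, had the smallest p upward, and Uba3 (-0.038) and Ube2e1 (-0.0305) downward.

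Among the juveniles themselves the COP9 subunits Cops4 and Cops5 and the protease Usp25 had the smallest p. Cops4 scored 0.16, 0.32, 0.21, 0.41 and 0.35 in the 5 mice of 17 to 21 days and 0.12, 0.12, 0.23, 0.09 and 0.1 in the 5 of 33 to 44 days. The older mice were lower with an overlap of 1 older mouse and the 2 lowest younger ones, and the fitted difference with sex as a term was -0.173 ± 0.0713 (95% interval -0.329 to -0.0165, unadjusted p = 0.033, adjusted p = 0.987 in limma). It was the 1 gene of 46 with an unadjusted p under 0.05, with 0.822% of all rows, and also the 1 by the methods' rule, with 0.796%. With runs of title numbers as a block it was -0.149 (unadjusted p = 0.138 in limma), and no gene of the system had an unadjusted p under 0.05. Left out one at a time, the mice gave differences from -0.195 to -0.143, and the unadjusted p was over 0.05 in 6 of the 10 cases.

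Cops5 lay the other way. It scored 1.95, 2.04, 1.95, 2.11 and 1.93 in the younger and 2.13, 2.15, 2.13, 2.1 and 2.1 in the older juveniles. The older mice lay together near the top, and among the younger only the mouse at 2.11, on the array of low median, reached them, and the difference of 0.116 ± 0.0652 had an unadjusted p of 0.102 (limma). Usp25 scored 1.73, 1.85, 1.92, 2 and 1.91 in the younger and 2.07, 2.06, 2.23, 1.98 and 1.9 in the older, a difference of 0.162 ± 0.0845. Without the array of low median, which is in the younger group, Cops4 differed by -0.143 (unadjusted p = 0.0575 in limma), Cops5 by 0.148 (0.0343), Usp25 by 0.202 (0.0231) and Ube2q1 by -0.185 (0.0426), each with an adjusted p of 0.833. There 3 of the 46 genes had an unadjusted p under 0.05, with 4.29% of all rows, and 23 of 46 were higher. With all juvenile arrays in the fit Psma3 differed by -0.108 ± 0.0699. In that fit 8 of the 9 conjugating enzymes were lower in older juveniles. The lowest was Ube2j1 at -0.109, which also had the smallest p of the 9 (unadjusted p = 0.245 in limma). Over the 46 genes 17 were then higher and 29 lower, with a median of -0.0267 (0.000833 over all rows). Without the array of low median the median was -0.00218, and the 9 enzymes were not counted apart. Adult arrays of low median scored higher for Ube2k (by 0.444), Ube2g2 (0.424) and Ube2j1 (0.312), among others, but lower for Ube2q1 (-0.568) and Ube2s (-0.269). The part of the juvenile array of low median in the count of 8 was not tested.

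For 17 genes the filter carried several features, so that scores of 1 gene could be compared within the same mice. Over the 50 adult arrays without a low median, the 19 pairs of features had a median Pearson r of -0.0255, and 9 of them were above 0. The other 544 genes with several features gave 823 pairs with a median r of 0.122, of which 62% were above 0. Of the 19 pairs 11 passed an adjusted p of 0.05 in a permutation test (100000 permutations, two-sided, 19 pairs), 6 with r above 0 and 5 below.

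The 2 features of Psmc1, which lie 44 places apart in the list, agreed best, with r = 0.721 and Spearman's rho = 0.714 (n = 50, permutation p = 1e-05 for both, the smallest that could be given; adjusted p = 6.33e-05 and 0.00019), r = 0.751 without the 2 farthest mice and 0.626 within runs of title numbers. Next came Usp32 with r = 0.439 and rho = 0.425 (n = 50, permutation p = 0.0014 and 0.00209; adjusted p = 0.00665 and 0.00794), 0.472 without the 2 farthest mice. At the other end the features of Fbxo21 ran against each other, with r = -0.678 and rho = -0.607 (n = 50, permutation p = 1e-05 and 3e-05; adjusted p = 6.33e-05 and 0.000285), and those of Ube2e1 likewise, with r = -0.597 and rho = -0.489 (n = 50, permutation p = 1e-05 and 0.00047; adjusted p = 6.33e-05 and 0.00223). Without the 2 farthest mice these were -0.543 and -0.609, and within runs of title numbers -0.542 and -0.573. Psmd10 gave r = -0.416 and Psmc3ip r = -0.376, and after a correction for position in the list -0.555 and -0.613. Averaging opposed features narrows a gene's spread: the 2 features of Ube2e1 varied with an SD of 0.139 and 0.174 in adults, and their mean with 0.0556. The features of Usp10 ran against each other by Pearson's r as well (r = -0.4, n = 50, adjusted permutation p = 0.00986) but not by rho (-0.252, adjusted p = 0.112). Differences in gene means of Ube2e1, Psmd10, Psmc3ip, Usp10 and Fbxo21 therefore rest on features that did not rise and fall together.

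**Figure D5:**
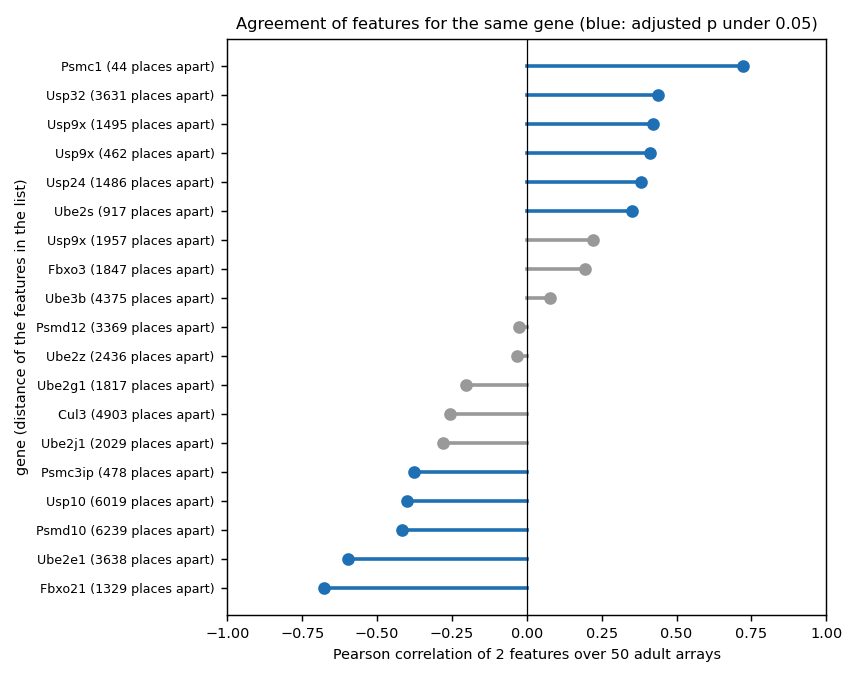
Pearson correlation over 50 adult arrays of each pair of features for the same gene (19 pairs, 17 genes), with the distance of the features in the list in brackets and blue for an adjusted permutation p under 0.05. Correlations run from -0.678 for Fbxo21 to 0.721 for Psmc1, with 9 above 0 and 10 below.

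Scores also moved with the order of the titles. Over 5 runs of title numbers, with 10 to 12 adults each, the mean of the adults ranged from 0.0567 to 0.42 for Psme1, from 0.0075 to 0.289 for Uchl1, from 0.725 to 1.04 for Ube2q1 and from 2 to 2.09 for Cops5. Of 105 other genes listed for the pathway (ubiquitin, ubiquitin-like modifiers, other ligases, receptors and deubiquitinases), 47 were on the filter and 26 were tested in adults. None of these passed an adjusted or an unadjusted p of 0.05 in any comparison. Their medians were 0.001 between young and old AL mice (13 higher, 12 lower, 1 equal), 0.0165 between young and middle-aged CR mice (16 higher, 10 lower) and -0.0034 for CR against AL over all ages (10 higher, 16 lower).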

How the data were processed

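Striatal RNA of 67 mice was labelled with a radioactive nucleotide and hybridized by the authors to NIA mouse 17K cDNA nylon filters. The arrays used here, 1 per mouse, are all titled mouse17K-B, and images were read with ArrayPro. The deposited values are Z scores: the authors transformed each array to a mean of 0 and an SD of 1, with log base and background treatment not given in the sources used here. Columns of no sample numbered 0, and no 2 columns were identical. The columns of title numbers 66 and 67 were turned end to end. Groups came from the labels of age, diet and sex. Each mouse was 1 sample, and the number of arrays limits the precision.

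Of 8448 features, 4875 had 1 symbol in the platform annotation, 224 several and 3349 none. Features of a gene were averaged, giving 7782 rows. The members and gene lists were chosen with earlier results of these data known. Differences were fitted with limma 3.58.1 in R 4.3.3 to 12 adult group means, on rows with a mean score above 0 (3904 rows), with Benjamini-Hochberg adjustment over them and a threshold of 0.05. Juveniles were compared in separate fits (3892 and 3893 rows). The fit was tried on simulated data with noise independent between genes. Its spread was that of the 50 adult arrays without a low median. Shifts of arrays of low median or of runs of title numbers were not simulated, so it does not show the power of the main fit. Named genes were those that passed in any comparison, the 2 with the smallest p in each direction per comparison, the 2 highest and the lowest mean scores per group of genes, the feature pairs agreeing most and least, and Uchl1, Psmb4 and Usp46, which the study names. Marker lists of astrocytes (5 of 12 measured), microglia (3 of 10) and blood (3 of 7) were read beside the striatal list. From middle to old age the astrocyte mean went from 0.154 to 0.228 in AL and from 0.144 to 0.223 in CR mice. The microglia mean went from 0.196 to 0.262 in AL and from 0.22 to 0.268 in CR mice. For blood it went from -0.133 to -0.165 and from -0.1255 to -0.1307. The mice of both ages overlapped in each, and the part of these cells in the age differences was not tested. Alternatives covered normalization, centring, position on the filter, filter, single features, array weights, arrays of low median (under -0.035), order of values, runs of title numbers, the arrays in the fit, each array left out and the methods' rule. Figures used Python 3.11.15 and matplotlib 3.10.9.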

Additional observations from a re-analysis of the deposited data

Results flagged for a closer look

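Among 98 sets of values (class means and named genes in the 7 groups of age and diet, each of 8 to 10 mice), 14 had 1 mouse far from the others by Dixon's criterion. For a single set chance alone gives about 1 in 20. The 98 sets share arrays and genes, and the genes were chosen with earlier results known. The count of 14 can therefore not be compared with that rate. Of the 14 values, 11 lay on arrays of low median score. In the juveniles male replicate 3 had a 20S mean of 1.26, with the nearest mouse at 0.815, and a Ube2q1 score of 0.34. In middle-aged AL mice female replicate 2 had a 20S mean of 1.14, a COP9 mean of 0.875, Cops7a at -0.03 and Ube2q1 at 0.33. In old AL mice male replicate 4 had a mean of 1.01 for proteasome regulators and assembly genes, 0.59 for the genes with other names, Cops7a at 0.24 and Ube2q1 at 0.37. In old CR mice male replicate 3 had Cops7a at 0.19. All of these are arrays of low median. The other 3 were not: young CR female replicate 5 had a mean of 0.402 for the genes with other names (nearest 0.49), old CR male replicate 1 a mean of 0.556 for the ubiquitin-specific proteases (nearest 0.632), and old CR female replicate 4 a 19S mean of 0.351 (nearest 0.465).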

How the results depend on the processing

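No gene of the system passed an adjusted p of 0.05 in limma in any of the 14 comparisons, with these exceptions among the alternatives run. With array weights 5 of 45 genes passed between young and middle-aged CR mice (11.1%, with 16% of all rows). Between middle-aged and old CR mice 1 did (2.22%, with 4.43%), and between young and old CR mice 12 did (26.7%, with 24.8%). The first count was 4 without old CR male replicate 2 (18.4% of all rows) and 5 without the arrays of low median (21.3% of all rows), both chosen after seeing the data. By the methods' rule, which uses an unadjusted p, 1 gene (Cops4) passed in older against younger juveniles, with 0.796% of all rows. Leaving out single arrays gave 0 to 0 genes in each comparison. The replicate block by runs of title numbers gave 0 genes in all 14, and under it Cops5 differed by 0.113 between young and middle-aged CR mice.

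Of 853 differences of named genes under alternatives, 28 changed sign, each with an adjusted p of 0.196 or more, and the cause was not tested. Uchl1 in old against middle-aged AL mice was -0.00364 with quantile normalization, -0.003 with median centring, -0.0500 with array weights, -0.007 without the arrays of low median and -0.171 in the order as listed. With single arrays left out it ran from -0.0335 (without middle AL female replicate 2) to 0.0305. With array weights Usp32 was -0.0346 (middle-aged against young AL) and -0.0449 (CR against AL, young), Usp10 0.0101 (old against middle-aged CR), and Psmc3ip -0.0107 and Usp25 -0.00323 (females against males). In the order as listed Ube2j1 was 0.029 in old against middle-aged AL mice, and Usp32 was -0.296, Cops7a -0.204, Ube2e2 0.196 and Ubac2 0.085 in old against young AL mice. There Usp34 was 0.0473 (CR against AL, old), Psmd4 -0.0257 and Cul7 0.0397 (all ages) and Psmd11 0.175 (CR minus AL). With position correction, with or without the filter, Cul7 was 8.33e-05 over all ages. With single arrays left out, 6 more ranges crossed 0, with old CR male replicates 1 and 3 at their ends. In old against middle-aged CR mice Ube2j1 ran from -0.1135 to 0.0165 and Uchl1 from -0.028 to 0.142. For CR against AL in old mice Usp34 ran from -0.13 to 0.0175 and Uchl1 from -0.05 to 0.12. Usp25 ran from -0.00408 to 0.0551 between the sexes and from -0.1575 to 0.02 for CR minus AL. The balance of higher and lower genes also turned in several settings. For CR against AL over all ages, 24 of 45 were higher in the main fit. The count was 17 with median centring, 22 with runs as a block, 22 without arrays 66 and 67, 22 with position correction and 20 of 46 without the arrays of low median. With position correction 24 of 45 were higher in females. For CR minus AL 19 were above 0 with a term for the arrays of low median, 19 without arrays 66 and 67 and 17 with position correction. With array weights the balance turned for old against middle-aged CR mice (25 of 45, against 19) and CR against AL in young mice (24 of 45, against 17). The number of arrays limits what could be seen.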
